A study of Mus musculus with 6 samples.

Results

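The pancreatic lipase family and related secreted lipases were followed in the uterus of mice with stabilized β-catenin. The members were 7 genes, Pnliprp1, Pnliprp2, Pnlip, Lipg, Lipc, Liph and Lipa, which were chosen from the mutant against control contrast of these same arrays, where Pnliprp1 and Pnliprp2 stood among the genes with the highest difference. The values of that contrast are therefore given for the members as a description with no test. Of the 7 members, 5 were read by probe sets whose annotation gives exactly 1 gene symbol, out of 18193 genes so read. These 5 members had 11 of the 34945 probe sets with 1 symbol. No such probe set carried Pnlip or Lipc, and these genes were not analysed here.

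The arrays held uterine RNA of female mice at 4 weeks of age, 3 of mutant (Pgr cre/+ Ctnnb1f(ex3)/+) and 3 of control uteri, each array giving 1 intensity per probe set. Cre driven by the Pgr locus deletes, in mutant mice, exon 3 of 1 Ctnnb1 allele in cells that have expressed Pgr, which in the uterus covers epithelium, stroma and muscle, and the protein left behind escapes degradation. The control mice are called wild type in the sample labels, while the study's methods describe them as carrying Pgr cre/+ or Ctnnb1f(ex3)/+. The methods also state that RNA of 3 mice per genotype was pooled, so the arrays may not stand for separate animals, and the errors and p-values below measure only the spread between arrays, which may be technical. Of 8 uterine markers all were above an intensity of 16 on all 6 arrays, Esr1 among them at log2 intensities of 11.46 to 11.51 in the mutant and 11.23 to 11.37 in the control uterus. On every array 62.3 to 62.6% of probe sets lay below 16, a range where differences may be understated.

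Lipases cut the ester bonds of triglycerides, phospholipids or cholesteryl esters and release fatty acids. Pancreatic lipase and its relatives are made by the acinar cells of the pancreas and act in the gut, whereas endothelial and hepatic lipase act on lipoproteins in the blood. They share a serine hydrolase fold with lipoprotein lipase, while Lipa, lysosomal acid lipase, belongs to a separate family and acts inside cells. The uterus is not a tissue known for digestive lipases.

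In RefSeq, build GRCm38.p6, Pnlip, Pnliprp1 and Pnliprp2 follow each other on chromosome 19. The sequences around the start sites of Pnliprp1 and Pnliprp2 are shown because these neighbours had the largest differences of the family, and because β-catenin acts on DNA through TCF/LEF factors. Each runs 5′ to 3′ from 250 bases before to 50 bases after the start, on the + strand, and capitals mark a match to CTTTGA or CTTTGT, core letters of TCF/LEF sites, searched on both strands. The windows are chr19:58728637-58728936 for Pnliprp1 and chr19:58759473-58759772 for Pnliprp2.
Pnliprp1 promoter: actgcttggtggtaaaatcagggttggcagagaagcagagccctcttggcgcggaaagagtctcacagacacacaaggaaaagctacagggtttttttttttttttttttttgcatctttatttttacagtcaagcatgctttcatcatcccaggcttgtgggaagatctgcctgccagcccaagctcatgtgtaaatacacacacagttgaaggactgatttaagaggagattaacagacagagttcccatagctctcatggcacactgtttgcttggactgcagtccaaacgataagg
Pnliprp2 promoter: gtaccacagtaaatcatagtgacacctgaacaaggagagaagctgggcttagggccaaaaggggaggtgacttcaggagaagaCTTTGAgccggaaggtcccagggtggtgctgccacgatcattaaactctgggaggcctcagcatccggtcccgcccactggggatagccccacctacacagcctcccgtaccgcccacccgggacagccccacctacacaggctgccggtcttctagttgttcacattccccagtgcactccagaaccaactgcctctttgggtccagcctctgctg
The Pnliprp2 window held 1 match, CTTTGA, starting 167 bases before the start site, and the Pnliprp1 window held none. Of 32851 promoter windows in the RefSeq table, 16% held CTTTGA, 18.7% held CTTTGT and 31.2% held either. Promoter windows of 6 of the 7 members were searched, and that of Lipg is not reported here. Besides Pnliprp2, Lipa held 1 CTTTGA, Liph and 1 of the 2 windows of Lipc held 1 CTTTGT each, and Pnlip held neither. These matches describe letters in a window and are not binding sites.

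Pnliprp1 encodes pancreatic lipase related protein 1, a secreted relative of pancreatic lipase for which little lipase activity is known. Its probe set 1415777_at had intensities of 293, 579 and 795 in mutant replicates 1 to 3, against 5.13, 4.97 and 5.93 in control replicates 1 to 3. Every mutant array lay far above every control array, and the control values lay in the low range where most probe sets of the array are found. The mean log2 intensity was 9.0 ± 0.73 in the mutant and 2.41 ± 0.14 in the control uterus (SD, n = 3 arrays each). This was a log2 difference of 6.59 (standard error 0.32), or 96.3-fold. All 3 control values lay below 16 and are not shown to be above background, so the fold depends on how low values are treated. With intensities below 16 raised to 16, the log2 difference was 5.0, or 32.1-fold. Ordered by log2 difference, Pnliprp1 stood at position 1 of 18193 genes as measured and at position 3 with that floor. As these are whole uteri, more cells with the transcript and more transcript per cell cannot be told apart, here and in all values below.

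Pnliprp2 encodes an enzyme that cuts triglycerides and galactolipids, helps newborn mice digest milk fat and has also been found in activated cytotoxic T cells of mice. Its brighter probe set, 1448186_at, had intensities of 121, 265 and 335 in mutant replicates 1 to 3, against 6.01, 4.05 and 6.74 in control replicates 1 to 3. The other probe set, 1437438_x_at, had intensities of 97.7, 201 and 250 in the mutant, against 4.02, 4.58 and 4.05 in the control uterus. The x_at suffix marks probes that may also bind similar transcripts, which was not tested. Both probe sets gave the same order of arrays within the mutant group, but Pnliprp1 had that order too, so it cannot tell these transcripts apart. The log2 intensity of the brighter probe set was 7.79 ± 0.77 in the mutant and 2.45 ± 0.39 in the control uterus (SD, n = 3 arrays each). The log2 differences of the probe sets were 5.33 (standard error 0.37) and 5.34 (standard error 0.29, in the fit over all probe sets), which is 40.3-fold and 40.4-fold. The control values again lay below 16, and with the floor of 16 the brighter probe set had a log2 difference of 3.79, or 13.8-fold. Pnliprp2 stood at position 5 of 18193 genes as measured and at position 10 with the floor.

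Pnliprp1 and Pnliprp2 had the same order across the mutant arrays, an order shared by other genes named below. Mutant replicate 1 lay below its group mean by 0.81 (log2) for Pnliprp1 and by 0.87 for Pnliprp2, and mutant replicate 3 lay above it by 0.63 and 0.60. The highest mutant array was 2.71-fold above the lowest for Pnliprp1 and 2.77-fold for Pnliprp2. Leaving out 1 array at a time gave log2 differences of 6.27 to 6.99 for Pnliprp1 and 5.03 to 5.77 for Pnliprp2.

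**Figure D1:**
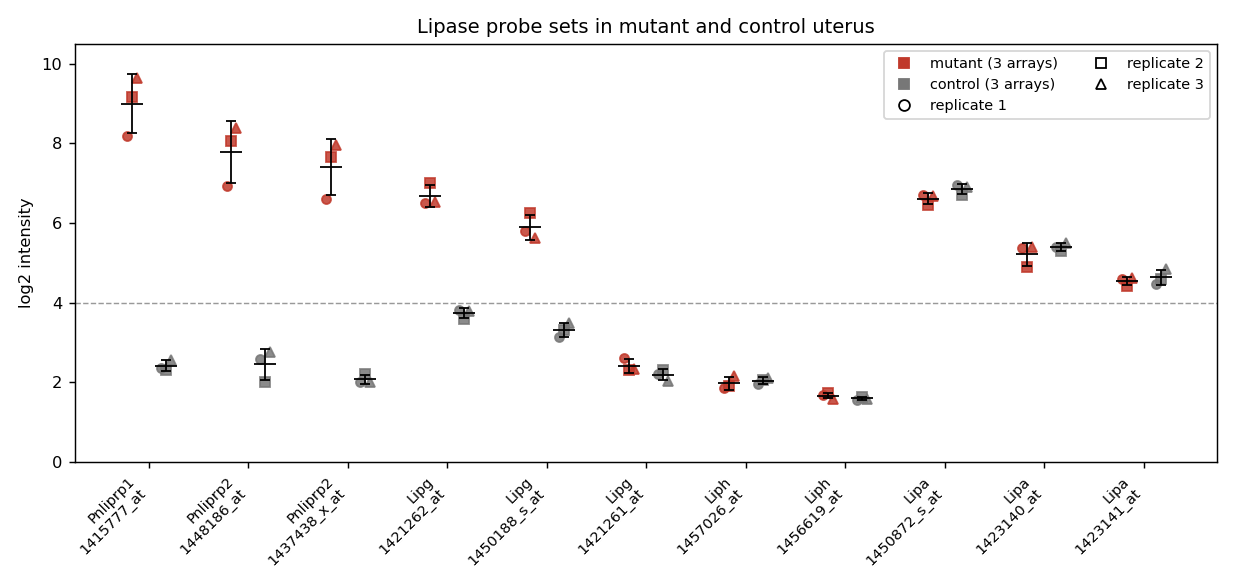
Log2 intensity (y axis) of each of the 11 probe sets of 5 lipase genes (x axis) on 3 mutant arrays (red) and 3 control arrays (grey), with the replicate number given by the marker shape, mean and SD as black bars, and an intensity of 16 as the dashed line. Mutant arrays stand clear of control arrays for Pnliprp1, both Pnliprp2 probe sets and 2 of the 3 Lipg probe sets, and lie close to them for Liph and Lipa.

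Lipg encodes endothelial lipase, a secreted phospholipase that acts on high-density lipoproteins. Its brightest probe set, 1421262_at, had intensities of 91.3, 129 and 91.9 in mutant replicates 1 to 3, against 14.2, 12.1 and 13.8 in control replicates 1 to 3. The groups did not overlap, and here mutant replicate 2, not 3, was the highest. The log2 intensity was 6.68 ± 0.28 in the mutant and 3.73 ± 0.12 in the control uterus (SD, n = 3 arrays each), a log2 difference of 2.95 (standard error 0.15) or 7.71-fold. Its control values lay just below 16, and with the floor the difference was 2.68, or 6.41-fold. A second probe set, 1450188_s_at, had intensities of 56.1, 75.9 and 49.5 in the mutant and 8.84, 9.88 and 11.3 in the control uterus, with a log2 difference of 2.58 (standard error 0.16). The third, 1421261_at, read 6.09, 4.94 and 5.0 in the mutant and 4.65, 4.98 and 4.12 in the control uterus, and its groups overlapped. All 3 Lipg probe sets cite the same transcript in the annotation, so they disagree on 1 transcript, and with their mean the log2 difference was 1.92.

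Liph encodes a secreted phospholipase that makes lysophosphatidic acid, and in humans it is needed for hair growth. Its probe set 1457026_at had intensities of 3.62, 3.75 and 4.46 in the mutant and 3.89, 4.18 and 4.31 in the control uterus, and 1456619_at had 3.20, 3.29 and 3.00 in the mutant and 2.96, 3.12 and 3.00 in the control uterus. All these values lay far below 16 and the groups overlapped, with a log2 difference of -0.07 (standard error 0.10) for the brighter probe set and 0.06 (standard error 0.08) for the other. Lipa encodes lysosomal acid lipase, which releases cholesterol and fatty acids from lipids taken up by the cell. Its brightest probe set, 1450872_s_at, had intensities of 105, 88.1 and 103 in mutant replicates 1 to 3, against 124, 105 and 120 in control replicates 1 to 3. Mutant replicate 1 and control replicate 2 were nearly equal, and the log2 difference was -0.24 (standard error 0.11). The other Lipa probe sets had log2 differences of -0.18 and -0.09 (standard errors 0.14 and 0.12), with overlapping groups.

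In the fit over all genes, 3 of the 5 measured members (Pnliprp1, Pnliprp2 and Lipg) were past an adjusted p of 0.05 in limma as higher in the mutant, a threshold that 5.61% of all genes passed in that direction. None of the 5 was past it as lower, against 6.36% of all genes. The mutant arrays lay wholly above the control arrays for the same 3 members, as for 14.9% of all genes, and wholly below them for Lipa, as for 17.4%. The members were chosen on this contrast, so nothing is read from these counts.

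The genes nearest in pattern were found by the root mean square difference over the 6 arrays, after each gene's control mean was subtracted from its log2 values. For Pnliprp1 they were Clic6 (0.559), which encodes a chloride intracellular channel protein, Notum (0.644), whose secreted product removes a lipid from Wnt proteins and so inactivates them, Amhr2 (0.865), the receptor of anti-Müllerian hormone, Pnliprp2 (0.905) and the serine protease gene Prss56 (0.998). For Pnliprp2 they were Prss56 (0.345), the granzyme genes Gzmg (0.517) and Gzmd (0.54), Igfbp2 (0.532), which binds insulin-like growth factors, and A2ml1 (0.565), a relative of the protease inhibitor α2-macroglobulin. Prss56 came nearest to Pnliprp2, with log2 intensities of 6.92, 7.51 and 8.15 in mutant replicates 1 to 3 and 2.19, 2.47 and 2.30 in control replicates 1 to 3. Among the mutant arrays, Prss56, Gzmg, Gzmd and A2ml1 were, like Pnliprp2, lowest in mutant replicate 1 and highest in mutant replicate 3. These genes were selected by the contrast and are a description.

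**Figure D2:**
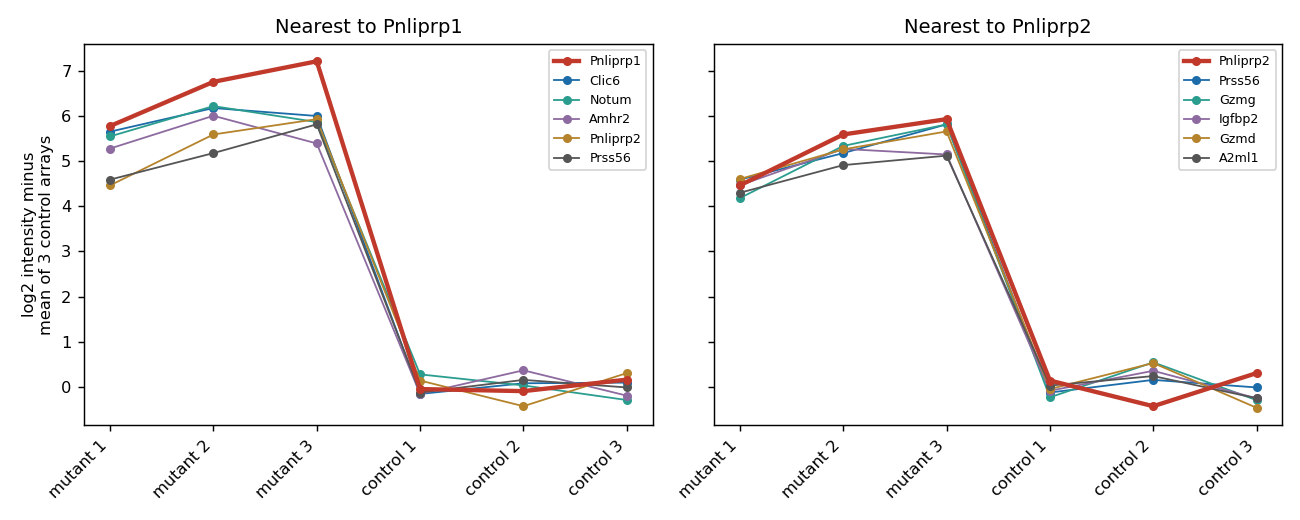
Log2 intensity minus the mean of the 3 control arrays (y axis) on each array (x axis) for Pnliprp1 (left, red) and Pnliprp2 (right, red) and the 5 genes whose values lie nearest to each. Among the mutant arrays, Pnliprp1, Pnliprp2, Prss56, Gzmg, Gzmd and A2ml1 are lowest in mutant replicate 1 and highest in mutant replicate 3.

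The genes on either side of the cluster were measured to see how far along the chromosome the difference reached. Of the 5 protein-coding genes on each side, 9 were measured, of which 1 had risen in the mutant uterus, 0 had fallen and 8 missed the threshold. Of all genes, 5.61% were called higher and 6.36% lower. The neighbours had a median log2 difference of 0.07 against -0.01 over all genes. Gfra1, a co-receptor of the growth factor GDNF, had log2 intensities of 5.03, 5.10 and 5.71 in the mutant and 4.23, 3.82 and 4.60 in the control uterus, and rose by 1.06 (standard error 0.24, adjusted p = 0.0279 from limma). When mutant replicate 2 or 3 or control replicate 1 or 2 was left out it missed the threshold, with adjusted p-values between 0.0612 and 0.0922 (0.85 to 1.16). It also missed it when its probe sets were averaged (0.40, adjusted p = 0.153). The nearest measured genes, Ccdc172 before Pnlip and 1700019N19Rik after Pnliprp2, had log2 intensities of 1.90 to 2.07 and 1.84 to 2.01 in the mutant and 1.88 to 1.92 and 1.79 to 1.93 in the control uterus. Their log2 differences were 0.08 (standard error 0.08, adjusted p = 0.584) and 0.07 (standard error 0.09, adjusted p = 0.651). The others, Trub1, Atrnl1, Hspa12a, Eno4, Shtn1 and Vax1, lay between -0.29 and 0.12 (adjusted p of 0.115 to 0.831). Of the 9 measured neighbours, 5 lay below an intensity of 16 on all 6 arrays, both nearest ones among them. Differences may be understated there, so these values do not settle how far the difference reached.

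**Figure D3:**
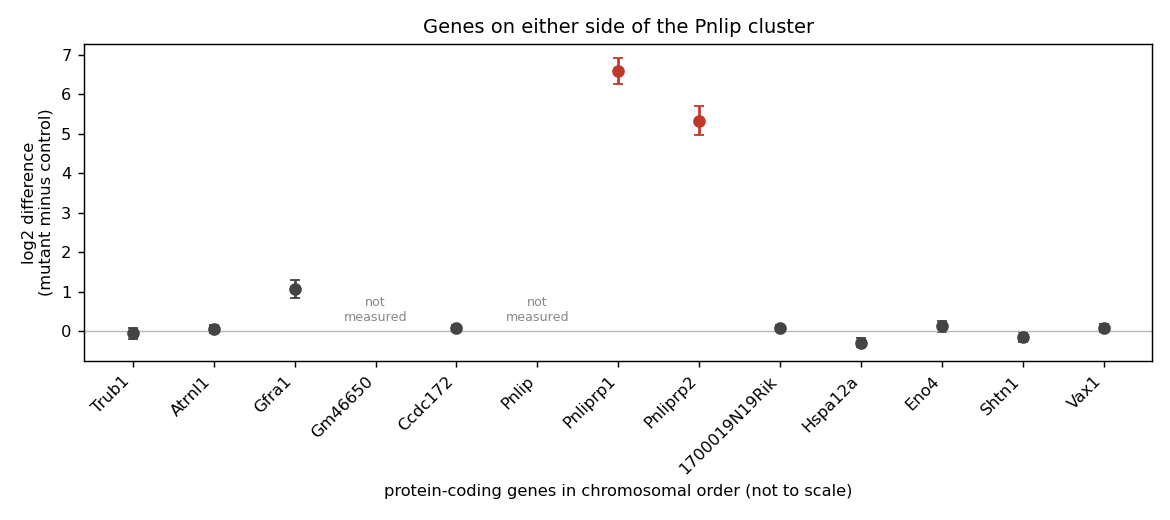
Log2 difference of mutant minus control with limma's standard error (y axis) for protein-coding genes in chromosomal order (x axis, not to scale), with the 2 measured members of the Pnlip cluster in red and their neighbours in dark grey. Pnliprp1 and Pnliprp2 stand at 6.59 and 5.33, Gfra1 at 1.06, and the other 8 measured neighbours between -0.29 and 0.12. Of the 9 measured neighbours, 5 lay below an intensity of 16 on all arrays.

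Transcripts of pancreatic acinar cells, the usual source of both Pnliprp genes, were low on all arrays. Of 19 measured acinar markers, 17 lay below an intensity of 16 on all 6 arrays, among them Cpa1 (carboxypeptidase A1), the acinar transcription factor Ptf1a, Clps (colipase, the cofactor of pancreatic lipase) and Cel (bile salt-dependent lipase). Clps had log2 intensities of 2.26, 1.97 and 2.10 in mutant replicates 1 to 3 and of 2.04, 2.00 and 2.27 in control replicates 1 to 3, with overlapping groups (adjusted p = 0.98 from limma). The mean of the 19 markers ranged from 2.59 to 2.68 in the mutant and from 2.51 to 2.63 in the control uterus. The median log2 difference was 0.01, with 1 marker higher, 0 lower and 18 not called, beside 5.61% of all genes higher and 6.36% lower. The higher one was Gp2, a glycoprotein of zymogen granules, which rose by 0.96 (standard error 0.14, adjusted p = 0.00618) at log2 intensities of 2.66 to 3.00 in the mutant and 1.70 to 2.15 in the control uterus, all below 16, so that its difference was 0 with the floor of 16. Cela1, an elastase, and Prss2 were the markers not below 16 on all arrays, and did not pass, at 0.24 and -0.06 (adjusted p = 0.212 and 0.762). Prss2 had log2 intensities of 4.07 to 4.33 in the mutant and 4.16 to 4.35 in the control uterus, above 16 on every array. The high Pnliprp values were thus read on arrays where nearly all acinar markers lay below 16.

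Some markers of other cells moved with the genotype, and their part in the lipase values was not tested. Of all genes, 5.61% were called higher and 6.36% lower, the shares beside which the marker counts here and below stand. Of 11 measured markers of uterine natural killer cells, 4 had risen in the mutant uterus, 1 had fallen and 6 missed the threshold. The lower one, Ncr1, a receptor of natural killer cells (-0.54, adjusted p = 0.047), was not called when any 1 array was left out. Its values all lay below 16, at log2 intensities of 2.14 to 2.36 in the mutant and 2.61 to 3.08 in the control uterus. The higher ones were the granzymes Gzmd, Gzmg, Gzme and Gzmf, with log2 differences of 5.18, 5.12, 3.68 and 3.54, and their near-identical sequences may share probes. With the floor of 16, Gzmd stayed past the threshold (2.92, adjusted p = 0.0327), while Gzmg and Gzme did not (2.83 and 1.60, adjusted p = 0.065 and 0.102). Gzmb and Gzmc, 2 other granzymes, did not pass (0.47 and 0.91, adjusted p = 0.306 and 0.0766), although Gzmc passed when control replicate 3 was left out (1.15, adjusted p = 0.0476) and with array weights (1.26, adjusted p = 0.0268). Without control replicate 1 Gzmc was at 0.58 (adjusted p = 0.117). Prf1, Klrg1, Eomes and Il2rb were not called either, at 0.48, 0.27, 0.01 and -0.19, with Eomes and Il2rb below 16 on all arrays. The list averaged 4.58 to 5.01 in the mutant and 2.80 to 3.31 in the control uterus, while its median log2 difference was 0.48. None of the 6 measured T cell markers was called by limma and 1 (Cd3g, at -0.59 and an adjusted p of 0.108) had an unadjusted p under 0.05, with Cd3e and Cd3d at 0.14 and -0.02 (adjusted p = 0.529 and 0.932). The median was 0.02, and the list averaged 2.80 to 2.97 in the mutant and 2.86 to 2.95 in the control uterus. Of the 6 T cell markers, 5 lay below 16 on all 6 arrays, so differences may be understated there. For Lipg, 10 endothelial markers averaged 5.91 to 6.20 in the mutant and 6.13 to 6.14 in the control uterus. Of these, Flt1, a receptor of VEGF, rose by 0.49 and Tek, the angiopoietin receptor, had a log2 difference of -0.85 (adjusted p = 0.0381 and 0.0282), and 8 did not pass, Pecam1 and Cdh5 among them (-0.20 and -0.29, adjusted p = 0.219 and 0.175), although Cdh5 passed when mutant replicate 1 was left out (-0.41, adjusted p = 0.046). With the mean of its probe sets Flt1 was at 0.33 (adjusted p = 0.0339). Neither call held when mutant replicate 2 or control replicate 1 was left out. Flt1 also missed the threshold when mutant replicate 1 or control replicate 3 was left out (0.41 to 0.49, adjusted p-values between 0.0801 and 0.137), and Tek when mutant replicate 3 or control replicate 2 was left out (-0.90 to -0.69, adjusted p-values between 0.0676 and 0.093).

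Beside Lipa, which macrophages express strongly, 5 of 12 markers of macrophages had risen, 0 had fallen and 7 missed the threshold, with a list mean of 5.89 to 6.0 in the mutant and 5.60 to 5.62 in the control uterus. The count of higher markers was 0 without control replicate 1, 3 without mutant replicate 3, and 4 or 5 without any other array. The complement genes C1qb and C1qa rose by 0.56 and 0.50 (adjusted p = 0.00993 and 0.0111), and both missed the threshold when control replicate 1 was left out (0.52 and 0.46, adjusted p = 0.0528 and 0.0563). With the mean of its probe sets C1qb was at 0.29 (adjusted p = 0.185). Fcgr1, an Fc receptor, rose by 0.49 (adjusted p = 0.0404), and missed the threshold when any array other than control replicate 3 was left out (0.36 to 0.53, adjusted p-values between 0.0676 and 0.132) or its probe sets were averaged (0.34, adjusted p = 0.0655). Cd68 and Adgre1 did not pass, at 0.06 and 0.19 (adjusted p = 0.878 and 0.272). Of 7 epithelial markers, Krt18 had a log2 difference of -0.80 (adjusted p = 0.00584), none was higher and 6 did not pass, Epcam and Cdh1 among them (-0.04 and -0.28, adjusted p = 0.906 and 0.122). Of 8 uterine markers, Foxa2 and Hand2 rose by 1.54 and 1.49, Pgr and Wnt7a had log2 differences of -0.97 and -1.71, and 4 did not pass. With the mean of their probe sets Hand2 and Wnt7a were at 0.97 and -0.64 and stayed past the threshold. With the floor of 16, Hand2, Wnt7a and Krt18 missed it (adjusted p = 0.0566, 0.074 and 0.0566), while Foxa2 and Pgr stayed past it. None of 8 smooth muscle, 7 hepatocyte or 6 ovarian steroidogenic markers was called by limma, and 0, 6 and 5 of them lay below 16 on all arrays. With control replicate 2 or control replicate 3 left out, 1 hepatocyte marker was called higher. The medians of these lists were 0.04, 0.02 and -0.16, and 1, 1 and 0 of their genes had an unadjusted p under 0.05, Myocd in muscle (0.33, adjusted p = 0.116) and Cyp2e1 in liver (2.02, adjusted p = 0.055), a gene that fat also expresses. Of the leading genes of the 3 lists, Acta2 and Myh11 were at 0.16 and -0.04, Alb and Apoa1 at 0.02 and 0.04, and Star and Cyp11a1 at -0.12 and -0.19 (adjusted p of 0.236 to 0.935).

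**Figure D4:**
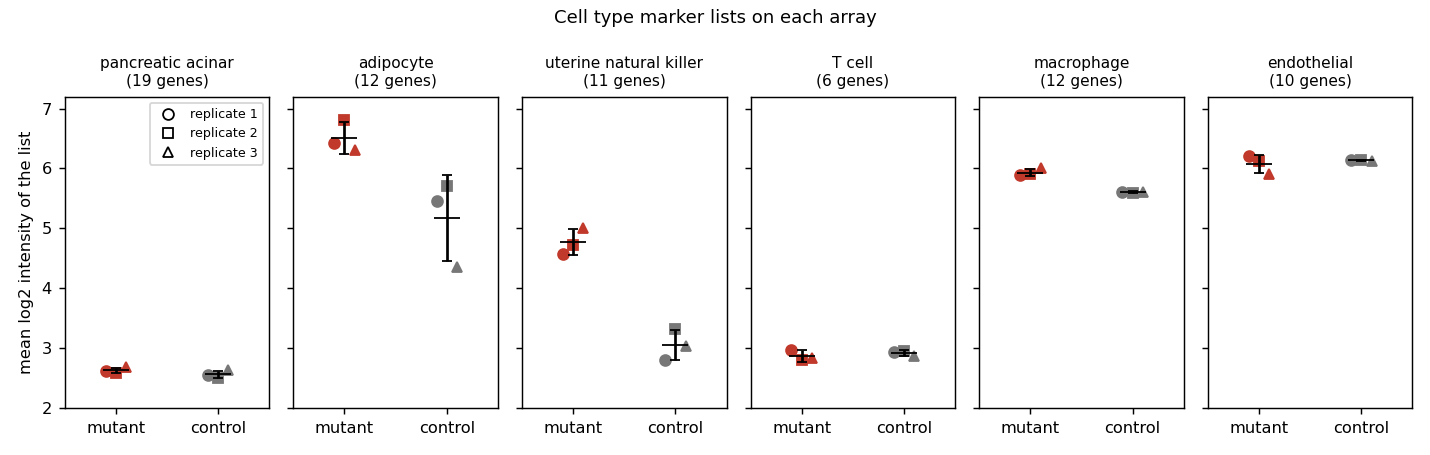
Mean log2 intensity (y axis) of the measured markers of 6 cell types on each of 3 mutant arrays (red) and 3 control arrays (grey), with marker shapes for replicate numbers and black bars for mean and SD. The acinar means lie between 2.51 and 2.68 on all arrays, the natural killer and adipocyte means are higher on every mutant array, and control replicate 3 is the lowest for adipocyte markers.

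Other lipases and the genes that serve them were taken from 7 lists and the locus neighbours. Of all genes, 5.61% were called higher and 6.36% lower, and the counts of each list stand beside these shares. Over the lists, 16 of 95 measured genes had risen in the mutant uterus, 7 had fallen and 72 missed the threshold. Their median log2 difference was 0.06 against -0.01 over all genes. Higher genes numbered 9 once mutant replicate 2 was left out and 8 once control replicate 1 was, and the count of lower genes was 1 to 4 when any 1 array was left out. With intensities below 16 raised to 16, 4 were higher and 2 lower. Among the other members of the lipoprotein lipase family, Pla1a, a secreted phospholipase specific for phosphatidylserine, had log2 intensities of 3.77, 3.40 and 2.99 in mutant replicates 1 to 3 and of 6.17, 5.31 and 6.10 in control replicates 1 to 3. Its log2 difference was -2.47 (standard error 0.27, adjusted p = 0.00185 from limma), opposite in sign to its relatives Pnliprp1, Pnliprp2 and Lipg. With the floor of 16 it was at -1.86 and just missed the threshold (adjusted p = 0.052). Lpl, lipoprotein lipase itself, had log2 intensities of 10.42, 10.77 and 10.07 in the mutant and of 9.73, 9.72 and 8.53 in the control uterus, and it did not pass (1.09, standard error 0.33, adjusted p = 0.0785). Lipi, a close relative of Liph, was below 16 on all arrays (-0.02, adjusted p = 0.93). Of 6 acid lipases beside Lipa, none was called by limma, 1 had an unadjusted p under 0.05 (the gastric lipase Lipf, at 0.27 and an adjusted p of 0.0873), and 5 lay below 16 on all arrays, Lipk among them (0.03, adjusted p = 0.89).

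Of 16 intracellular lipases and their regulators, 5 had risen, 1 had fallen and 10 missed the threshold, with a median of 0.22. The count of higher genes was 3 without mutant replicate 2 or control replicate 1 and 4 without any other array. G0s2, an inhibitor of adipose triglyceride lipase, rose by 1.14 (standard error 0.16, adjusted p = 0.00553). Ces1f, a carboxylesterase, had log2 intensities of 2.99, 3.5 and 3.64 in the mutant and 1.98, 2.46 and 1.90 in the control uterus, a rise of 1.26 (standard error 0.20, adjusted p = 0.00895). All of these lay below 16, and with the floor of 16 the difference was 0. Lipe, hormone-sensitive lipase, rose by 0.74 (standard error 0.12, adjusted p = 0.00814), but missed the threshold when its probe sets were averaged (0.25, adjusted p = 0.172). Pnpla7, a lysophospholipase, had a log2 difference of -0.54 (adjusted p = 0.0366), and missed the threshold when any array other than mutant replicate 3 was left out (-0.57 to -0.41, adjusted p-values between 0.0694 and 0.133). With the floor of 16, G0s2, Lipe and Pnpla7 missed the threshold too (1.14, 0.59 and -0.54, adjusted p = 0.0679, 0.0616 and 0.144). Of 15 cofactors and regulators of lipases, 3 had risen, 0 had fallen and 12 missed the threshold, with a median of 0.21. Apoc1, an apolipoprotein that inhibits lipoprotein lipase, rose by 1.33 (standard error 0.21, adjusted p = 0.008), but missed the threshold with the floor of 16 (adjusted p = 0.0855). Gpihbp1, which holds lipoprotein lipase on capillary endothelium, had log2 intensities of 7.40, 7.54 and 7.65 in the mutant and 6.45, 6.25 and 6.08 in the control uterus, and rose by 1.27 (standard error 0.12, adjusted p = 0.000971). Pcsk6, a proprotein convertase that can cleave lipoprotein and endothelial lipase, rose by 1.09 (standard error 0.11, adjusted p = 0.00133).

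Of 20 genes of lipid uptake and esterification, 4 had risen, 2 had fallen and 14 missed the threshold, with a median of 0.06. Cd36, a fatty acid receptor, rose by 1.77 (standard error 0.43, adjusted p = 0.037), Fabp5, a fatty acid binding protein, by 1.51 (standard error 0.39, adjusted p = 0.0466), and Acsl3, which activates fatty acids, by 0.69 (standard error 0.13, adjusted p = 0.0147). Vldlr, a lipoprotein receptor, had a log2 difference of -0.53 (standard error 0.14, adjusted p = 0.0472). None of these 4 calls held when mutant replicate 2 or control replicate 1 was left out. Cd36 also missed the threshold when mutant replicate 1 or 3 was left out (1.54 to 1.96 in these 4 cases, adjusted p-values between 0.0585 and 0.134), and Fabp5 when mutant replicate 1 or control replicate 3 was (1.14 to 1.60, between 0.0849 and 0.139). Vldlr missed it when any array other than mutant replicate 1 was left out (-0.61 to -0.42, between 0.0603 and 0.133), and Acsl3 in the first 2 cases only (0.63 and 0.67, adjusted p of 0.0586 and 0.0648). The 12 measured adipocyte markers averaged 6.43, 6.82 and 6.31 in mutant replicates 1 to 3. In control replicates 1 to 3 they averaged 5.45, 5.71 and 4.36. Of them, 4 had risen, 0 had fallen and 8 missed the threshold, and the median was 1.41. The count was 6 without control replicate 2 or 3, 3 without mutant replicate 3, and 2 without any other array, with medians of 0.95 to 1.64. Cidec, a lipid droplet protein, rose by 1.82 (standard error 0.29, adjusted p = 0.009), while Adipoq, which encodes adiponectin, did not pass (2.48, standard error 0.74, adjusted p = 0.0735). Adipoq passed when control replicate 2 or control replicate 3 was left out (3.10 and 1.5, adjusted p = 0.0471 and 0.0204). Retn and Adig rose by 2.35 and 1.72 (adjusted p = 0.0407 and 0.043), but not when mutant replicate 1 or 2 or control replicate 1 was left out. Retn also missed the threshold when mutant replicate 3 was left out (2.02 to 2.66, adjusted p-values between 0.0664 and 0.146), and Adig when control replicate 2 or 3 was (1.27 to 1.99, between 0.0515 and 0.133). Fabp4 is in the adipocyte list and in that of lipid uptake, and did not pass (2.20, adjusted p = 0.102). Lipe and Lpl are in the adipocyte list too, and the part of fat tissue in the values of lipid genes was not tested.

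Liph makes lysophosphatidic acid, and of 8 measured genes of this lipid's pathway 2 had risen, 0 had fallen and 6 missed the threshold, with a median of -0.30. Lpar1, a receptor, had log2 intensities of 8.17, 8.16 and 8.18 in the mutant and of 7.22, 7.19 and 7.27 in the control uterus, a rise of 0.94 (standard error 0.07, adjusted p = 0.000504) with little spread in either group. Plpp1, a phosphatase that degrades the lipid, rose by 0.62 (standard error 0.11, adjusted p = 0.013), but missed the threshold when control replicate 1 was left out (0.57, adjusted p = 0.0612). Of 18 lysosomal genes beside Lipa, 1 had risen, 3 had fallen and 14 missed the threshold, with a median of -0.01. Gla, α-galactosidase A, rose by 0.66, with all values below 16 and a difference of 0 with the floor and of 0.30 with the mean of its probe sets, while the sialidase Neu1, the α-glucosidase Gaa and the protease Ctsb had log2 differences of -0.49, -0.43 and -0.35 (adjusted p of 0.0279 to 0.0364 for the 4). None of these 4 calls held when mutant replicate 2 or control replicate 1 or 3 was left out. Gla also missed the threshold when mutant replicate 3 was left out (0.54 to 0.66, adjusted p-values between 0.0933 and 0.128), and Neu1 when mutant replicate 1 or control replicate 2 was (-0.52 to -0.37, between 0.0548 and 0.125). Gaa and Ctsb missed it when any array other than mutant replicate 1 was left out (-0.48 to -0.37, between 0.0614 and 0.119, for Gaa, and -0.36 to -0.31, between 0.0654 and 0.0964, for Ctsb).

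**Figure D5:**
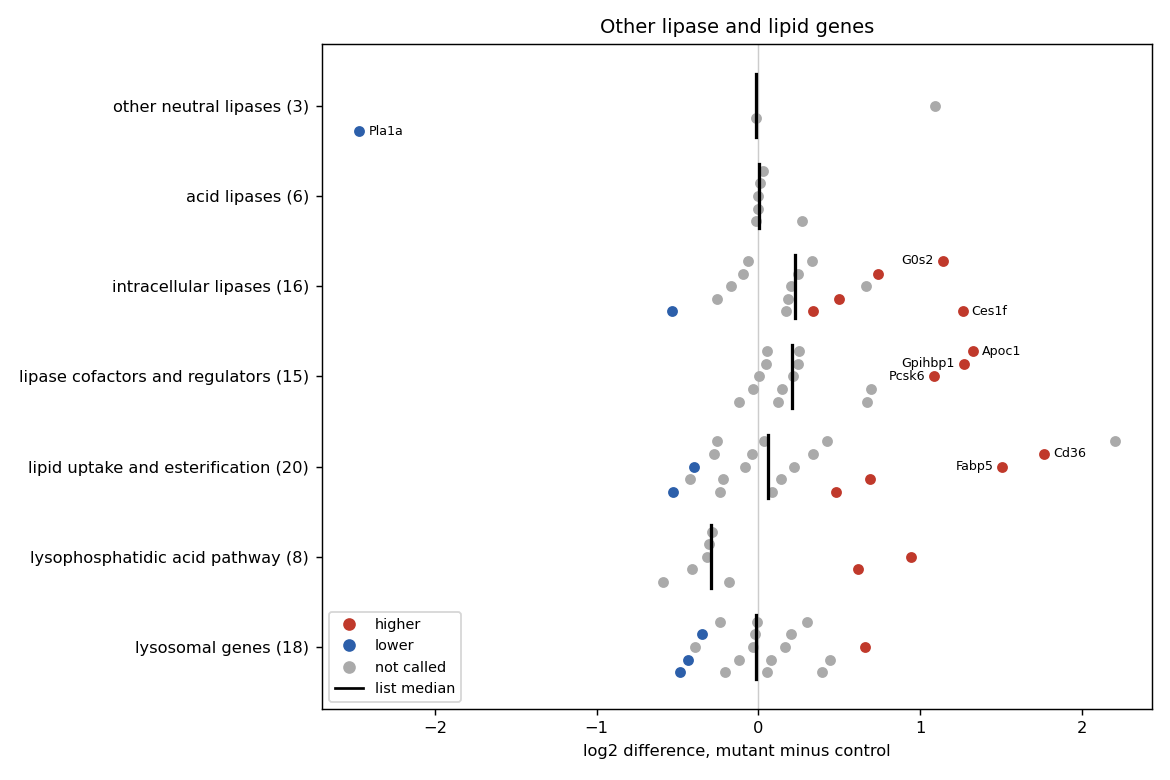
Log2 difference of mutant minus control (x axis) for genes of 7 lists (y axis, with the number of measured genes in brackets), coloured by the limma call at an adjusted p under 0.05, with a black bar at each list's median. Pla1a stands alone at -2.47, and the medians lie between -0.30 and 0.22.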

How the data were processed

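Uterine RNA of 3 mutant and 3 control samples was measured on 6 Affymetrix mouse arrays, with groups and replicate numbers taken from the sample labels. The authors deposited 1 intensity per probe set on a linear scale, and the submitters' processing notes name RMA, which corrects background, scales arrays to each other and summarizes probes. No version of it, filter or detection call was found in those notes or the methods. The design allowed for linear or log2 values, and log2 was taken of the deposited linear intensities (floor of 1, which changed 0 values). GEO's annotation of the platform supplied gene symbols. Among 45037 probe sets, 34945 carried 1 symbol, 932 carried several and were left unnamed, and 9160 carried none. Each of 18193 genes was read by its brightest probe set over the 6 arrays.

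The mutant minus control difference was fitted by limma 3.58.1 (lmFit and eBayes, without covariates, in R 4.3.3). Its p-values were adjusted by Benjamini-Hochberg across the 18193 genes, a gene was called below 0.05, and the steps were tested on simulated data. Errors of means are SDs, and those of log2 differences are limma's standard errors. The members and lists were chosen with earlier results of these data known. Named genes are the members, the locus neighbours, up to 4 called genes of each gene list by size of change (or the 2 with the smallest p), the first 2 genes and up to 3 called genes of each marker list, and the 5 genes nearest to each Pnliprp gene. Clps, Cel, Ptf1a, Prss2, Lpl, Lipi, Fabp4 and Gzmf fall outside this rule and were chosen after their values were seen. The same holds for Ncr1, Prf1, Klrg1, Eomes, Il2rb, Cd3g, Myocd and Cyp2e1. No label gives a batch or scan date. The number of arrays limits the precision. Alternatives were other scalings, other ways to read a gene, a filter and a floor on low values, other variance models, a replicate block, the methods' t-test and leaving out each array. Promoter sequences are RefSeq's (GRCm38.p6), and protein sequences were not used here.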

Additional observations from a re-analysis of the deposited data

How the results depend on the processing

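The log2 differences of Pnliprp1, Pnliprp2 and Lipg kept their direction under every alternative run. With intensities below 16 raised to 16 they were 5.0, 3.79 and 2.68, since their control values were then raised to the floor, and with the mean of its probe sets Lipg was at 1.92. Leaving out 1 array at a time gave 6.27 to 6.99, 5.03 to 5.77 and 2.78 to 3.03 for these 3 genes, -0.16 to -0.01 for Liph and -0.31 to -0.16 for Lipa. Liph had no value once the lowest 40% of genes were left out.

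Over all genes, limma called 1021 higher and 1157 lower. The floor of 16 gave 283 and 243, the methods' t-test with Benjamini-Hochberg adjustment 105 and 39 (72.9% higher), and leaving out 1 array 480 to 971 and 372 to 1139. Fewest were called without control replicate 1 (480 and 372) and mutant replicate 2 (580 and 493), and lower genes numbered 682 without control replicate 2 and 760 without mutant replicate 3. Of the 95 list genes, 16 were higher and 7 lower. These counts were 4 and 2 with the floor of 16, 1 and 0 with the methods' t-test, and 8 to 16 and 1 to 4 without 1 array. The calls of Cd36, Fabp5, Acsl3, Vldlr, Plpp1, Neu1, Gaa and Gfra1 were among those lost with the floor. Among named marker genes, the calls of Retn, Adig, Flt1, Tek and C1qb were lost with it too. The same-numbered arrays share no stated origin, so the numbers were not taken to pair them. The deviations of the pairs numbered 1, 2 and 3 correlated at 0.01, 0.21 and 0.16. Those of unlike-numbered pairs correlated at -0.21 to 0.11. The fit with the replicate block called 966 genes higher and 1085 lower, and 17 and 5 list genes. Replicates stand for arrays, 3 a group, and the depth of signal limits the low values, since Pnliprp1 and Pnliprp2 in the control uterus lay where most probe sets lie.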
